A study of Mus musculus with 3 samples.

Results

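Macrophages that make the complement component C1q and were not in cell cycle were examined in the CD45-positive cells of 4T1 breast tumors. A cell was counted as one of them when it had at least 10 transcripts of C1qa, C1qb and C1qc together, at least 1 transcript of Adgre1, Ms4a7 or Mrc1, no transcript of Cd3e (T cells) or Cxcr2 (neutrophils), and fewer than 2 of the cell cycle genes Mki67, Top2a, Birc5 and Cdk1. Of 12472 cells that had at least 1500 unique molecular identifiers (UMIs, tags that mark each captured transcript once), at least 300 genes and at most 20% mitochondrial counts, 567 met these limits. The cells were therefore chosen by their C1q, Adgre1, Ms4a7, Mrc1, Cd3e, Cxcr2 and cell cycle counts, and the levels of these genes are given as a description only.

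The 4T1 line was derived from a BALB/c mammary carcinoma. All tumors grew for 14 days from 200000 cells placed with matrigel in the 4th mammary fat pad of female BALB/c mice of 6 to 8 weeks. The vehicle group carried 4T1-luc tumors with intact p38α and received DPBS for 10 days from day 4, and the p38i group carried the same tumors and received LY2228820 (ralimetinib, an oral inhibitor of the p38 kinases) at 30 mg/kg daily over the same days. The p38KO group carried 4T1-luc cells of the p38a-KO-H9 line, a single clone in which Mapk14, the gene of p38α, was inactivated by CRISPR-Cas9, and the labels give it no treatment. Tumors of 3 mice per group were pooled, digested with a cold protease, sorted for live CD45+ cells and sequenced as 1 library per group. The macrophages are cells of the host and carry an intact Mapk14, so in the p38KO group the gene was inactivated in the tumor cells and not in the macrophages, while the inhibitor could reach both. One clone cannot be told apart from the deletion it carries, and a pool, its digestion, sort and library cannot be told apart from the group.

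C1q is the recognition subunit of the classical complement pathway, and in tissues it is made mainly by macrophages, which also present antigen on MHC class II, take up apoptotic cells and lipids, and release chemokines. Macrophages of tumors arise largely from blood monocytes, which lose Ly6c2 and Ccr2 and gain C1q, Apoe and MHC class II as they mature. The p38 kinases carry stress and cytokine signals to transcription factors and, through MK2 (Mapkapk2) and the RNA-binding protein tristetraprolin (Zfp36), set the half-life of many short-lived chemokine and cytokine transcripts.

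The vehicle library held 93 of the 567 macrophages, the p38i library 119 and the p38KO library 355. They carried 1712975, 2050145 and 5033144 UMIs, with a median of 17241, 17205 and 12275 UMIs and 3816, 3718 and 3167 genes per cell. Those of the p38KO library were thus more numerous and shallower, and their median mitochondrial share was 3.89% against 3.06% in vehicle and 3.17% in p38i. The median cell had 169, 216 and 199 C1q UMIs, far above the limit of 10. Just inside that limit, at 10 to 14 C1q UMIs, lay 1 vehicle, 4 p38i and 11 p38KO cells, of which 0, 0 and 7 held Ccl8. Just outside it, at 5 to 9, lay 8, 5 and 8 cells that met every other limit, with Ccl8 in 3, 1 and 7. The vehicle library shared 6 cell barcodes with p38i and 5 with p38KO, and p38i shared 9 with p38KO, but no barcode was a C1q-positive macrophage in both libraries of a pair. With 1 library per group no test between groups was possible, and every interval below is a 95% interval for counting error alone, without the variation between mice. The pair of values in parentheses after a log2 ratio is such an interval.

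C1q-positive macrophages made up a similar share of the vehicle and p38i libraries and a larger one of p38KO. The share of kept cells, with an exact Clopper-Pearson interval, was 2.43% (1.97% to 2.97%) in vehicle, 2.48% (2.06% to 2.96%) in p38i and 9.20% (8.31% to 10.2%) in the p38KO library. The p38KO share was 3.78 times the vehicle share, with intervals that did not overlap, whereas the vehicle and p38i intervals did. Cycling cells that met the other limits numbered 37, 33 and 128, or 28.5% (20.9% to 37.0%), 21.7% (15.4% to 29.1%) and 26.5% (22.6% to 30.7%) of all C1q-positive macrophages, and these intervals overlapped. C1q-low monocytes (at most 2 C1q UMIs, with Csf1r and Ccr2, without Cd3e and Cxcr2, not cycling) showed another order, with 9.95% (9.02% to 10.9%) in vehicle, 12.96% (12.0% to 13.9%) in p38i and 7.93% (7.10% to 8.83%) in p38KO. Counted among cells without Cxcr2 and S100a9 transcripts alone, which leaves out the 83, 110 and 226 macrophages with an S100a9 transcript, their share was 2.39% (1.15% to 4.35%) in vehicle, 1.49% (0.684% to 2.81%) in p38i and 14.5% (12.2% to 17.0%) in the p38KO library. The median macrophage of p38KO was the shallowest, and whether these shares also move with depth was not tested. Shares of a sort do not tell more macrophages from fewer other leukocytes.

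**Figure D1:**
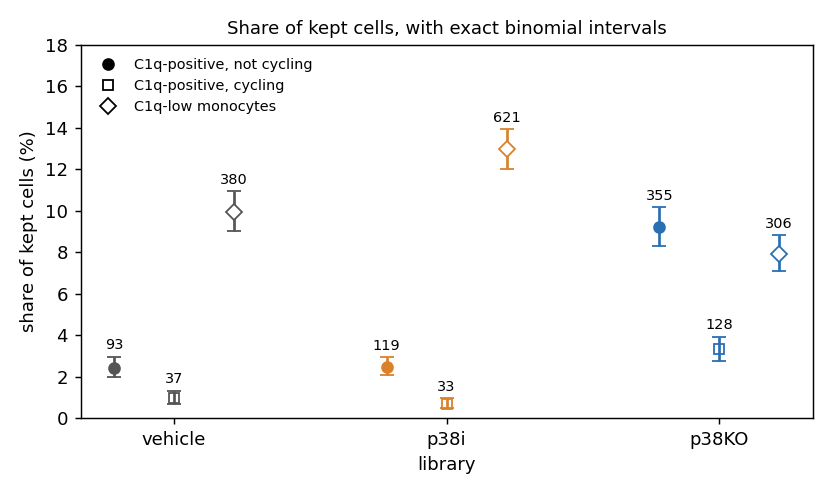
Share of kept cells (%, y axis) in each library (x axis) for C1q-positive macrophages not in cycle (filled circles), cycling ones (squares) and C1q-low monocytes (diamonds), with exact 95% binomial intervals for counting error and the number of cells above each point. The filled circle of p38KO, at 9.20%, lies above those of vehicle (2.43%) and p38i (2.48%).

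Levels are given as CPM, the counts of a gene summed over these cells of a library and scaled to one total in all libraries. Here and below, 3 values in a row without labels belong to vehicle, p38i and p38KO in this order. The rule itself fixes the levels of C1q and shapes those of Adgre1, Ms4a7 and Mrc1, so the label was checked on other macrophage markers. Apoe was at 14390.2 (vehicle), 17708 (p38i) and 25839 CPM (p38KO), against 1748, 1669 and 4553 CPM in the other kept cells. Csf1r, the receptor of the macrophage growth factor CSF-1, was at 594 (vehicle), 540.5 (p38i) and 894 CPM (p38KO), against 169.9, 183 and 276 CPM. The apoptotic-cell receptor Mertk was at 27.4 (vehicle), 41.0 (p38i) and 35.8 CPM (p38KO), against 4.51, 5.46 and 6.72 CPM. The Fc receptor Fcgr1 and the lysosomal protein Cd68 were also above the other cells in each library but did not lie above C1q-low monocytes in all 3, with 698, 517 and 694 CPM and 595, 612 and 558 CPM there, against 368, 370.2 and 473 CPM and 597, 518 and 554 CPM in the macrophages. The 15 genes with the largest level relative to all other kept cells, after 10 was added to each CPM, were Ccl8, C1qa, C1qc, C1qb, Vcam1, Apoe, Mrc1, Mmp12, Selenop, Zmynd15, Cd81, Ms4a7, Pf4, Ptgs1 and G530011O06Rik. C1q, Mrc1 and Ms4a7 are in this list through the rule. The others included the lipid carrier Apoe, the adhesion molecule Vcam1, the selenium carrier Selenop, the elastase Mmp12 and the chemokines Ccl8 and Pf4. The median fold over the other cells ran from 12.6 for Ccl8 to 5.64 for G530011O06Rik. For every gene but Mmp12 the fold was lowest in the p38KO library, where the other cells also held more of these transcripts. C1qa, for instance, was at 511, 319 and 1502 CPM in the other kept cells. These other cells include the 37, 33 and 128 cycling C1q-positive macrophages, and Cxcr2- or Cd3e-positive cells with C1q transcripts. The part of such cells in these folds was not tested.

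A UMI of at least 1 of Retnlg, Ly6g, Cd3d, Cd3g, Trac, Ncr1, Cd79a, Ms4a1, Cpa3, Epcam and Col1a1, which mark other lineages, was found in 8 of 93, 9 of 119 and 47 of 355 macrophages. More abundant transcripts of other lineages were wider spread, with S100a9 in 83, 110 and 226 of them. T cell markers, which the rule keeps low by requiring no Cd3e, summed to 8.17, 3.90 and 26.2 CPM, NK markers to 8.76, 6.83 and 60.0 CPM, fibroblast markers to 1.17, 1.46 and 3.58 CPM, erythroid markers to 2.92, 0 and 0.199 CPM and epithelial markers to 15.2, 40.0 and 25.8 CPM. Of the 10 mast cell markers 4, 2 and 10 were detected, with sums of 5.25, 3.90 and 213 CPM, so the p38KO library stood apart. Classical monocyte genes summed to 1665, 1882 and 1671 CPM and dendritic cell markers to 230.0, 204 and 291 CPM. Neutrophil markers summed to 548, 569 and 703 CPM, of which S100a9 (a calcium-binding protein abundant in neutrophils) was 152 (vehicle), 245 (p38i) and 332 CPM (p38KO). C1q was also counted in cells that should lack it. A C1q UMI was seen in 17.8%, 9.18% and 38.6% of Cxcr2-positive cells and in 17.8%, 8.92% and 38.9% of Cd3e-positive cells. At 1500 UMIs drawn per cell the shares were 10.3%, 5.37% and 26.2% in Cxcr2-positive cells and 6.79%, 4.90% and 17.0% in Cd3e-positive cells. In the macrophages they were 100%, 100% and 99.2%. Among the former, 17, 15 and 53 Cxcr2-positive and 5, 5 and 25 Cd3e-positive cells held 10 or more C1q UMIs. Free RNA and doublets, which were not called, cannot be told apart here. The p38KO library therefore carried the most C1q transcripts in these other cells, and their part in the p38KO values was not tested.

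The macrophages of p38i-treated tumors held lower levels of several chemokine and immediate-early transcripts than those of vehicle-treated tumors. Among 6579 genes with at least 50 counts over both libraries, 29 were at least 2-fold higher in p38i (0.441%) and 51 at least 2-fold lower (0.775%), and the median log2 ratio of all of them was -0.01. Of 18 chemokines with enough counts, 7 were at least 2-fold lower and 1 higher, with a median log2 ratio of -0.87. With cells weighted equally, as the mean of each cell's CPM, that median was -0.47. Of 18 immediate-early genes, 4 were at least 2-fold lower and none higher, with a median of -0.27, which was 0.05 with cells weighted equally. Summed, the chemokines were at 8860.0, 6152 and 8759 CPM and the immediate-early genes at 2771, 1908 and 2158 CPM in the macrophages. Cxcr2-positive cells held more of both lists, with 14223, 9869 and 13855 CPM and 13096, 9453 and 12427 CPM, and were also lowest in p38i. C1q-low monocytes had 5864, 5933 and 5562 CPM of the chemokines and 7219, 4415 and 5450.1 CPM of the immediate-early genes, the latter lowest in p38i as well. The part of these cells in the macrophage values was not tested. In p38KO, which was set against the same vehicle library, 6 of 18 chemokines were at least 2-fold lower and 1 higher, beside 1.08% and 3.28% of all genes, with a median of -0.59. Those 6 were Ccl6, Ccl9, Cxcl3, Cxcl9, Pf4 and Ppbp, and the 7 of p38i were Ccl2, Ccl4, Ccl7, Cxcl2, Cxcl9, Cxcl10 and Ppbp. Lower levels of some chemokines were thus seen in p38KO too, but only Cxcl9 and Ppbp were past 2-fold lower in both. In p38i both lists held more genes past 2-fold lower than the 0.775% of all genes.

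Ccl2, the main ligand of the monocyte receptor Ccr2, was at 466 CPM (435 to 499.9) in vehicle, 173 CPM (155 to 192) in p38i and 269.8 CPM (256 to 285) in p38KO. The log2 ratio to vehicle was -1.43 (-1.62, -1.25) in p38i, and in p38KO -0.79 (-0.92, -0.66). The p38i library was lowest, and the 3 intervals did not overlap. Ccl7, which acts on the same receptor, was at 302 (vehicle), 103 (p38i) and 259 CPM (p38KO), a log2 ratio of -1.55 (-1.79, -1.31) in p38i and -0.22 (-0.37, -0.07) in p38KO. Ccl4, an attractant of monocytes and T cells, was at 189.7 (vehicle), 53.2 (p38i) and 136 CPM (p38KO), with -1.84 (-2.16, -1.52) in p38i. With cells thinned to 1500 UMIs each, the p38i ratio was -1.71 for Ccl2, -0.64 for Ccl7 and -0.70 for Ccl4, so Ccl2 alone of the 3 stayed past 2-fold. The neutrophil chemokine Cxcl2 was at 183 (vehicle), 60.0 (p38i) and 191 CPM (p38KO), with -1.61 (-1.92, -1.30) in p38i. It came from few cells, since the richest 5% of the macrophages held 76.0%, 52.8% and 89.1% of its UMIs, and at 1500 UMIs drawn per cell the p38i ratio was -0.02. Cxcl9 and Cxcl10, interferon-induced ligands of Cxcr3 on T cells, were both past 2-fold lower in p38i. Cxcl9 was at 1175 (vehicle), 554 (p38i) and 536 CPM (p38KO), a log2 ratio of -1.09 (-1.19, -0.98) in p38i and -1.13 (-1.22, -1.05) in p38KO. Cxcl10 was at 194 (vehicle), 72.2 (p38i) and 248 CPM (p38KO), with -1.43 (-1.72, -1.15) in p38i and 0.35 (0.17, 0.53) in p38KO, so it was low in p38i alone of the 3 libraries. Ppbp, a platelet chemokine, was at 44.4 (vehicle), 3.41 (p38i) and 1.39 CPM (p38KO), and 100% of its vehicle UMIs lay in the richest 5% of cells.

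**Figure D2:**
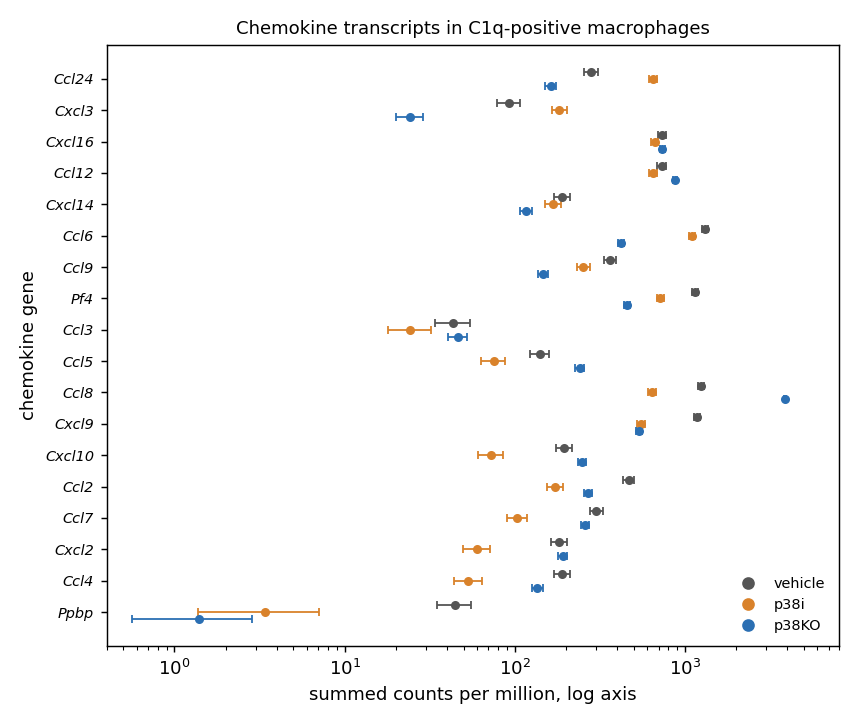
Summed CPM (x axis, log scale) of each chemokine gene with at least 50 counts (y axis) in the C1q-positive macrophages of the vehicle (grey), p38i (orange) and p38KO (blue) libraries, with exact 95% Poisson intervals for counting error, ordered by the ratio of p38i to vehicle. Ccl8 lies highest in p38KO at 3876 CPM, and Ccl4, Cxcl2, Ccl7, Ccl2 and Cxcl10 lie lowest in p38i.

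The chemokine on the other side was Ccl24, an eosinophil attractant of alternatively activated macrophages, at 281 (vehicle), 647 (p38i) and 163 CPM (p38KO). Its log2 ratio was 1.20 (1.05, 1.36) in p38i and -0.79 (-0.96, -0.63) in p38KO, so p38i was highest and p38KO lowest. The p38i level rested in part on a single macrophage at 15523 CPM of Ccl24, against 5468 CPM in the next highest. Whether the p38i ratio stays past 2-fold without that cell was not tested. A Ccl24 UMI was found in 21.5%, 28.6% and 11.5% of the macrophages at 1500 UMIs per cell, against 0.871%, 2.23% and 0.885% of Cd3e-positive cells. Cxcl3 was also higher in p38i, at 92.2 (vehicle), 183 (p38i) and 24.2 CPM (p38KO), but 96.8%, 97.6% and 95.1% of its UMIs lay in the richest 5% of cells. Txnip, an inhibitor of thioredoxin and of glucose uptake, was at 88.2 (vehicle), 188 (p38i) and 167 CPM (p38KO), a log2 ratio of 1.09 (0.82, 1.38) in p38i and 0.92 (0.67, 1.18) in p38KO. The interferon-induced membrane protein Ifitm1 was at 838 (vehicle), 1413 (p38i) and 326 CPM (p38KO), with 0.75 (0.66, 0.85) in p38i and -1.36 (-1.47, -1.26) in p38KO. Klf2, a transcription factor that restrains inflammatory genes, was at 68.3 (vehicle), 109.7 (p38i) and 69.9 CPM (p38KO), with a p38i ratio of 0.68 (0.36, 1.02).

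Among the immediate-early genes, Dusp1, a phosphatase that switches off p38 and JNK, was at 101 CPM (86.5 to 117) in vehicle, 23.4 CPM (17.3 to 31.0) in p38i and 40.7 CPM (35.3 to 46.7) in p38KO. Its log2 ratio was -2.11 (-2.60, -1.64) in p38i and -1.31 (-1.61, -1.01) in p38KO, and vehicle was highest. A Dusp1 UMI was found in 11.8%, 3.36% and 5.63% of the macrophages at 1500 UMIs per cell and in 12.7%, 6.98% and 8.14% of Cd3e-positive cells, which held the same order. Junb, a subunit of AP-1, was at 616 (vehicle), 273 (p38i) and 331 CPM (p38KO), a log2 ratio of -1.17 (-1.32, -1.02) in p38i and -0.89 (-1.01, -0.78) in p38KO. Btg2, an antiproliferative early gene, was at 155 (vehicle), 57.1 (p38i) and 99.9 CPM (p38KO), with a p38i ratio of -1.44 (-1.77, -1.13). Zfp36, the gene of tristetraprolin, was at 152 (vehicle), 73.7 (p38i) and 134 CPM (p38KO), with a p38i ratio of -1.04 (-1.34, -0.75). Fos, the partner of Jun proteins, was at 204 (vehicle), 109.7 (p38i) and 88.4 CPM (p38KO), with -0.90 (-1.14, -0.65) in p38i and -1.21 (-1.41, -1.002) in p38KO. The zinc-finger factor Egr1 was at 25.1 (vehicle), 35.1 (p38i) and 55.8 CPM (p38KO) and thus highest in p38KO. Rgs1, which dampens chemokine receptor signals, was at 593 CPM (557 to 630.1) in vehicle, 145 CPM (129 to 162) in p38i and 226 CPM (213 to 239) in p38KO. Its log2 ratio was -2.03 (-2.22, -1.84) in p38i and -1.39 (-1.51, -1.27) in p38KO, and a Rgs1 UMI was found in 48.4%, 16.8% and 19.4% of thinned macrophages. Among Cd3e-positive cells the shares were 33.4%, 17.98% and 30.1%.

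Secreted factors were lower in p38i in part. Of 17 cytokines and growth factors with enough counts, 3 were at least 2-fold lower and none higher, beside 0.775% and 0.441% of all genes, with a median log2 ratio of -0.21. In p38KO, 4 of 23 were at least 2-fold higher and 3 lower, beside 3.28% and 1.08%, with a median of 0.11. Some of these 23 reached 50 counts only through p38KO, so their place in the count is a description only. The summed level was 2497, 1898 and 2522 CPM in the macrophages. It was higher and in p38i also lowest in Cxcr2-positive cells, with 13285, 9335 and 13878 CPM, and in C1q-low monocytes, with 4235, 3249 and 4010.0 CPM, and the part of these cells was not tested. Il1b, the inflammasome cytokine, was at 618 (vehicle), 259 (p38i) and 444 CPM (p38KO), with a p38i ratio of -1.26 (-1.41, -1.11). Vegfa, the main angiogenic factor, was at 119 (vehicle), 48.3 (p38i) and 49.9 CPM (p38KO), with -1.30 (-1.66, -0.95) in p38i and -1.26 (-1.53, -0.98) in p38KO. Osm, a cytokine of the interleukin-6 family, was at 49.6 (vehicle), 17.1 (p38i) and 18.3 CPM (p38KO), with -1.54 (-2.15, -0.96) in p38i and -1.44 (-1.88, -0.998) in p38KO. Tgfb1 was at 261 (vehicle), 265 (p38i) and 281 CPM (p38KO), with 0.02 (-0.16, 0.21) and 0.11 (-0.05, 0.27), intervals that held 0. The complement, MHC class II, lysosome and glycolysis lists had p38i medians of -0.06, -0.03, -0.12 and -0.12, and among their genes with enough counts only Vegfa, in the glycolysis and hypoxia list, was past 2-fold.

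Genes that the study names for monocytes and macrophages in these samples were a list chosen on these data and are no independent evidence of their direction. The list pools genes that were named for opposite directions (Sphk1, Il7r and Tnfrsf9 against the others), so its counts and medians do not stand for one direction. In p38i, 4 of its 15 genes with enough counts were at least 2-fold lower (Cxcl2, Vegfa, Ptgs2 and Ccrl2) and none higher, beside 0.775% and 0.441% of all genes, with a median of -0.34. In p38KO, 3 were at least 2-fold lower (Vegfa, Ptgs2 and Tnfrsf9) and none higher, beside 1.08% and 3.28%, with a median of -0.22. Ptgs2, the inducible cyclooxygenase, was at 37.9 (vehicle), 14.1 (p38i) and 10.5 CPM (p38KO). Of its UMIs, 76.9%, 72.4% and 96.2% lay in the richest 5% of cells, and with thinned cells its ratios were above 0. Ccrl2, a receptor that binds chemerin without signalling, was at 77.6 (vehicle), 36.1 (p38i) and 53.4 CPM (p38KO). Cd274, the checkpoint ligand PD-L1, was at 142 (vehicle), 76.6 (p38i) and 104 CPM (p38KO), a log2 ratio of -0.90 (-1.19, -0.60) in p38i and -0.46 (-0.68, -0.23) in p38KO. Csf1r, the receptor that keeps macrophages alive, was at 594 (vehicle), 540.5 (p38i) and 894 CPM (p38KO), with -0.14 (-0.26, -0.01) in p38i and 0.59 (0.49, 0.69) in p38KO. The chemokine receptor Cxcr4 had a p38i ratio of -0.47 and a p38KO ratio of -0.18. The GM-CSF receptor chains Csf2ra and Csf2rb had p38KO ratios of -0.14 and -0.06, and the phospholipase Pla2g7 one of -0.22. Tnfrsf9, the costimulatory receptor 4-1BB, was at 134 (vehicle), 87.3 (p38i) and 43.5 CPM (p38KO), with -0.61 (-0.90, -0.33) in p38i and -1.62 (-1.89, -1.35) in p38KO. The interleukin-7 receptor Il7r was at 74.1 (vehicle), 64.4 (p38i) and 43.7 CPM (p38KO). Clec4e, a receptor for microbial glycolipids, was at 33.9 (vehicle), 35.6 (p38i) and 22.5 CPM (p38KO). Cxcr1 and Sphk1 had at most 6 counts in any library.

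Mapk14 itself (chr17:28691329-28748406) was at 30.4 (vehicle), 43.4 (p38i) and 42.5 CPM (p38KO), a log2 ratio of 0.52 (0.01, 1.04) in p38i and 0.49 (0.04, 0.95) in p38KO, intervals whose lower ends lay near 0. Since it was deleted in the tumor cells alone, its level in macrophages does not check the labels. Of the 19 genes of the p38 pathway list with enough counts in p38i and vehicle, 2 were at least 2-fold lower, Dusp1 and Zfp36, beside 0.775% of all genes, and the median was -0.01. The kinase Mapkapk2, a direct p38 substrate, was at 144 (vehicle), 143 (p38i) and 145 CPM (p38KO).

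In p38KO tumors the macrophages had higher levels of interferon-stimulated transcripts than in vehicle tumors, with 17 of 32 at least 2-fold higher. Of 13 macrophage markers 2 were at least 2-fold higher, Ccl8 and Ms4a7, the latter a gene of the rule, beside 3.28% of all genes. MHC class II genes lay above vehicle in 8 of 10, none past 2-fold. Glycolysis and hypoxia genes lay below vehicle in 28 of 29, with 3 past 2-fold, and several matrix proteases were lower. Of 8260 genes with at least 50 counts over both libraries, 271 were at least 2-fold higher in p38KO (3.28%) and 89 at least 2-fold lower (1.08%), around a median of 0.03. Against p38i, where 8351 genes had enough counts, 256 were at least 2-fold higher in p38KO (3.07%) and 61 at least 2-fold lower (0.73%). The p38KO macrophages held the most UMIs, so a gene high there met the 50 counts at a lower CPM, which favours the higher side. With at least 1 count, 1619 were higher and 1145 lower against vehicle, and 1570 higher and 1185 lower against p38i. The comparisons with vehicle share the vehicle library, so values of p38i and p38KO are set side by side and not compared as evidence of each other.

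Ccl8, a monocyte attractant that lies near Ccl2 and Ccl7 on chromosome 11 (chr11:82115185-82116799, mm10), was at 1243 CPM (1191 to 1297) in vehicle, 638 CPM (603 to 673) in p38i and 3876 CPM (3822 to 3931) in p38KO, a log2 ratio of 1.64 (1.58, 1.71) in p38KO and -0.96 (-1.06, -0.86) in p38i. The p38KO library was highest and p38i lowest. A Ccl8 UMI was found in 24.7%, 28.6% and 63.7% of the macrophages at 1500 UMIs per cell, against 0.174%, 0.297% and 5.84% of Cd3e-positive cells. The vehicle level rested on few cells, the richest 5% of which held 70.6% of the UMIs, against 50.5% in p38i and 45.2% in p38KO. As the mean of each cell's own CPM, which weights cells equally, Ccl8 was 1179, 948 and 4332 CPM. Apoe, a carrier of lipids and cholesterol, was at 14390.2 (vehicle), 17708 (p38i) and 25839 CPM (p38KO), with 0.30 (0.28, 0.32) in p38i and 0.84 (0.82, 0.86) in p38KO. Ms4a7, a membrane protein of mature macrophages, was at 263 (vehicle), 287 (p38i) and 687 CPM (p38KO), with 1.38 (1.24, 1.53) in p38KO, and was found in 29.0%, 34.5% and 57.2% of thinned cells, against 0.523%, 0.149% and 2.30% of Cd3e-positive and 0.614%, 0.702% and 2.74% of Cxcr2-positive cells. It is 1 of the 3 genes through which a cell could be counted, so these values are a description. The C1q chains, encoded side by side on chromosome 4 (C1qa at chr4:136895917-136898803), differed less. C1qa was at 5614 (vehicle), 5700.1 (p38i) and 7434 CPM (p38KO), and the p38KO ratios of C1qa, C1qb and C1qc were 0.41, 0.35 and 0.34. Adgre1, which encodes F4/80, had 0.82 (0.61, 1.03), and Mrc1 0.26 (0.14, 0.37).

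Other genes of resident-type and perivascular macrophages went both ways. Of 21 with enough counts, 6 were at least 2-fold higher in p38KO (Ccl8, Igf1, Fcrls, Ltc4s, Cbr2 and Cd163) and 2 lower (Pf4 and Timd4), beside 3.28% and 1.08% of all genes. In p38i and vehicle 19 had enough counts, and Cd163 reached 50 counts only through p38KO, so its place in the count is a description only. The median was 0.37. Igf1, an insulin-like growth factor, was at 17.5 (vehicle), 10.7 (p38i) and 65.4 CPM (p38KO). The scavenger receptor Fcrls was at 30.4 (vehicle), 26.3 (p38i) and 103 CPM (p38KO), with a p38KO ratio of 1.76 (1.35, 2.20). The leukotriene C4 synthase Ltc4s was at 9.92 (vehicle), 25.9 (p38i) and 46.7 CPM (p38KO), so p38i and p38KO both lay above vehicle. Selenop was at 604 (vehicle), 639 (p38i) and 1161 CPM (p38KO), with 0.94 (0.85, 1.04) in p38KO. The fractalkine receptor Cx3cr1 was at 522 (vehicle), 544 (p38i) and 950.3 CPM (p38KO), with 0.86 (0.76, 0.97). Pf4, platelet factor 4, was at 1151 (vehicle), 718 (p38i) and 459.6 CPM (p38KO), with -0.68 (-0.78, -0.58) in p38i and -1.32 (-1.41, -1.24) in p38KO. The phosphatidylserine receptor Timd4 was at 21.6 (vehicle), 10.7 (p38i) and 4.57 CPM (p38KO). Pf4 and Timd4 were thus lower in both groups than in vehicle. The paired membrane proteins Tmem176a and Tmem176b were higher in p38KO. Tmem176a was at 112 (vehicle), 141 (p38i) and 359 CPM (p38KO), with 1.68 (1.46, 1.90) in p38KO. Tmem176b was at 183 (vehicle), 286 (p38i) and 485 CPM (p38KO), with 0.64 (0.44, 0.84) in p38i and 1.40 (1.23, 1.58) in p38KO. Cst3, the cysteine protease inhibitor cystatin C, was at 2013 (vehicle), 2308 (p38i) and 4120.3 CPM (p38KO), with 1.03 (0.98, 1.09) in p38KO, past 2-fold.

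Interferon-stimulated genes were higher in p38KO as a list. All 32 with enough counts had a log2 ratio above 0 in p38KO, beside 53.6% of all genes, 17 of them at least 2-fold, with a median of 1.04 and a background of 3.28% of genes. In p38i, 11 of 25 lay above 0, beside 48.9% of all genes, and none was past 2-fold, with a median of -0.10. The summed level was 2209, 2105 and 4138 CPM, and the median macrophage held 1641, 1641 and 3481 CPM. Irf7, the transcription factor that amplifies interferon production, was at 99.8 CPM (85.4 to 116), 84.9 CPM (72.7 to 98.5) and 249 CPM (235 to 263), a log2 ratio of 1.32 (1.09, 1.56) in p38KO. Ifi44, an interferon-induced gene, was at 92.8 (vehicle), 113 (p38i) and 237 CPM (p38KO), with 1.35 (1.11, 1.60) in p38KO. An Ifi44 UMI was seen in 8.60%, 16.0% and 25.6% of thinned cells and 1.22%, 1.19% and 2.30% of Cd3e-positive cells. The interferon-induced Ifi27l2a was at 597 (vehicle), 520.5 (p38i) and 1118 CPM (p38KO), with 0.91 (0.81, 1.004) in p38KO. The antiviral helicase Ifih1 was at 26.9 (vehicle), 21.9 (p38i) and 56.2 CPM (p38KO), and the ubiquitin-like Isg15 at 109 (vehicle), 87.8 (p38i) and 198 CPM (p38KO), with 0.87 (0.64, 1.10) in p38KO. All of these lay highest in p38KO. Rsad2, the antiviral enzyme viperin, stood at 19.3 (vehicle), 37.6 (p38i) and 169.9 CPM (p38KO), but 94.9% of its p38KO UMIs lay in the richest 5% of cells, of which 1 held 510. Its UMIs were seen in 3.23%, 3.36% and 5.63% of thinned macrophages and 3.14%, 1.78% and 4.25% of Cd3e-positive cells. The part of free RNA in either share was not tested. Cxcr2-positive cells of p38KO also held more of the list, with 7894, 4468 and 10679 CPM, as did Cd3e-positive cells, with 2436, 2442 and 3525 CPM. Their part in the macrophage values was not tested.

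Promoters of 4 genes of these groups are shown for the motifs they hold. The interferon-stimulated response element was searched as GAAANNGAAA and the κB element as GGGANNTTCC, on both strands, in RefSeq windows of 250 bases before to 50 after each start (GRCm38.p6). Capitals mark the matches, overlapping matches of one motif run together, each sequence reads 5′ to 3′ in the direction of its gene, and only bases before the start are printed.
Rsad2 chr12:26456543-26456592, minus strand: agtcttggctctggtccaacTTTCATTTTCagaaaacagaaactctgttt
Isg15 chr4:156200855-156200916, minus strand: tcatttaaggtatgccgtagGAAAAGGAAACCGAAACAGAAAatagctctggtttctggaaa
Ifit1 chr19:34640765-34640833, plus strand: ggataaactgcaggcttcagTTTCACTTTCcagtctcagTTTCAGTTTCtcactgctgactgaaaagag
Cxcl2 chr5:90903782-90903832, plus strand: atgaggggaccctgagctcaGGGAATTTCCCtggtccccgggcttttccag
The first 3 show response elements of interferon-stimulated genes and the last the κB element of Cxcl2. Of the 17 genes at least 2-fold higher in p38KO, 14 had a window and 7 held the response element, against 15 of 26 of the whole list and 3.49% of 27025 windows. Of the 7 chemokines at least 2-fold lower in p38i, 4 had a window and 2 held the κB element (Cxcl2 and Cxcl10), against 5 of 18 of all listed chemokines with a window and 1.43% of all windows. A match describes letters and is not a measured site.

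Most MHC class II genes lay above vehicle in p38KO by less than 2-fold, and complement genes lay on both sides of vehicle. Of 10 MHC class II genes with enough counts, 8 lay above 0 and none past 2-fold, with a median of 0.35, beside 53.6% of all 8260 genes above 0. The invariant chain Cd74 was at 15661 (vehicle), 14654 (p38i) and 21195 CPM (p38KO), with 0.44 (0.42, 0.46) in p38KO, and the class II chain H2-Aa at 6311 (vehicle), 5968 (p38i) and 8223 CPM (p38KO). The list summed to 37968, 36216 and 49936 CPM, with 33396, 38915 and 51411 CPM in the median cell. In the same order it was 4599, 4167 and 9398 CPM in Cxcr2-positive and 1557, 2281 and 5858 CPM in Cd3e-positive cells, which were also highest in p38KO, and their part in the macrophage values was not tested. Of 15 complement genes, C4b, a component of the classical pathway, was the one past 2-fold, beside 3.28% of all genes higher and 1.08% lower, at 44.4 (vehicle), 30.7 (p38i) and 125 CPM (p38KO), with 1.49 (1.15, 1.86) in p38KO. Factor B (Cfb), of the alternative pathway, was at 170.5 (vehicle), 138 (p38i) and 279 CPM (p38KO), with 0.71 (0.53, 0.90) in p38KO. Properdin (Cfp), which stabilises the alternative convertase, was at 329 (vehicle), 322 (p38i) and 186 CPM (p38KO), with -0.82 (-0.97, -0.67). The mitochondrially encoded genes were above 0 in 13 of 13, beside 53.6% of all genes, with a median of 0.27, as the mitochondrial share of these cells was, and their sum was highest in p38KO in Cxcr2-positive cells, with 10688, 11626 and 22961 CPM, and Cd3e-positive cells, with 28367, 27653 and 34241 CPM, too.

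Genes of glycolysis and the response to hypoxia were lower in p38KO. Of 29, 28 lay below 0 in p38KO, beside 3832 of all 8260 genes, with a median of -0.68, and 3 were at least 2-fold lower, beside 1.08% of all genes. In p38i, 21 of 29 lay below 0, beside 3365 of all 6579, with a median of -0.12. The summed level was 14818, 13791 and 9350.0 CPM, and in the median cell 12168, 12505 and 5974 CPM. The list was also lowest in p38KO in the other cells examined, with 11688, 14222 and 10044 CPM in cycling C1q-positive macrophages, 17779, 17390.5 and 15333 CPM in C1q-low monocytes, 16562, 16355 and 13681 CPM in Cxcr2-positive and 9209, 9983 and 6927 CPM in Cd3e-positive cells. The glycolytic dehydrogenase Gapdh was at 3392 (vehicle), 2999 (p38i) and 2123 CPM (p38KO), with -0.68 (-0.72, -0.63) in p38KO. The glycolytic kinase Pgk1 was at 919 (vehicle), 839 (p38i) and 487 CPM (p38KO), with -0.92 (-1.01, -0.83), and lactate dehydrogenase Ldha at 1096 (vehicle), 1189 (p38i) and 795 CPM (p38KO), with -0.46 (-0.54, -0.38). Vehicle and p38i lay close to each other and p38KO below both. The 3 genes past 2-fold were Vegfa, Hilpda and Ndrg1, which respond to low oxygen. The lipid droplet protein Hilpda was at 252 (vehicle), 153 (p38i) and 103 CPM (p38KO), with -1.30 (-1.49, -1.11), and Ndrg1 at 271 (vehicle), 220.0 (p38i) and 134 CPM (p38KO), with -1.02 (-1.19, -0.84).

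Several matrix proteases and their partners were lower in p38KO as well. Of 17 matrix genes with enough counts, 7 were at least 2-fold lower in p38KO (among them Mmp8, Mmp9, Mmp13, Adam8, Plaur and Slpi) and 1, Cst3, higher, beside 1.08% and 3.28% of all genes, with a median of -0.45. With thinned cells that median was 0.05. The summed level of the list went the other way, at 6708, 6266 and 7987 CPM, of which Cst3 was 2013, 2308 and 4120.3 CPM, and the median cell held 5231, 5629 and 6847 CPM. The gelatinase Mmp9 was at 236 (vehicle), 98.0 (p38i) and 26.4 CPM (p38KO), with -3.16 (-3.46, -2.88) in p38KO. It came from few cells, as 92.3%, 94.03% and 100% of its UMIs lay in the richest 5%. The collagenase Mmp13 was at 375 (vehicle), 247 (p38i) and 128 CPM (p38KO), with -1.55 (-1.71, -1.39) in p38KO and a UMI in 20.4%, 17.6% and 7.89% of thinned cells, against 0.348%, 0.446% and 0.531% of Cd3e-positive cells. The urokinase receptor Plaur was at 161 (vehicle), 100.5 (p38i) and 62.6 CPM (p38KO), with -1.36 (-1.60, -1.13). Mmp12, the macrophage elastase, was at 1371 (vehicle), 703 (p38i) and 1004 CPM (p38KO), and a Mmp12 UMI was seen in 29.0%, 24.4% and 11.8% of thinned cells, against 1.57%, 1.63% and 1.06% of Cd3e-positive cells. Its p38KO level lay in few cells, 90.0% of it in the richest 5%, against 55.8% in vehicle. Of the chemokines, Ccl6 was at 1319.9 (vehicle), 1107 (p38i) and 421 CPM (p38KO), with -1.65 (-1.73, -1.56) in p38KO, and Ccl9 at 364 (vehicle), 253 (p38i) and 147 CPM (p38KO), with -1.31 (-1.47, -1.16). Of 20 lipid-handling genes 3 were at least 2-fold lower, beside 1.08% of all genes, namely the lipoprotein lipase Lpl, the tetraspanin Cd9 and the fatty acid receptor Cd36. The list had a median of -0.03, with 9 genes above 0 and 11 below. Its sum was highest in p38KO, at 24798, 27698 and 35914 CPM, but Apoe alone was 14390, 17708 and 25839 CPM of it. Cd9 was at 245 (vehicle), 261 (p38i) and 109 CPM (p38KO), with -1.16 (-1.35, -0.98) in p38KO. Of 14 heat-shock chaperones 4 were at least 2-fold lower in p38KO, beside 1.08% of all genes, with a median of -0.38. Against p38i, the S100 proteins S100a4, S100a6 and S100a10, common in monocytes, were also lower in p38KO, with log2 ratios of -1.36, -1.34 and -1.14.

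**Figure D3:**
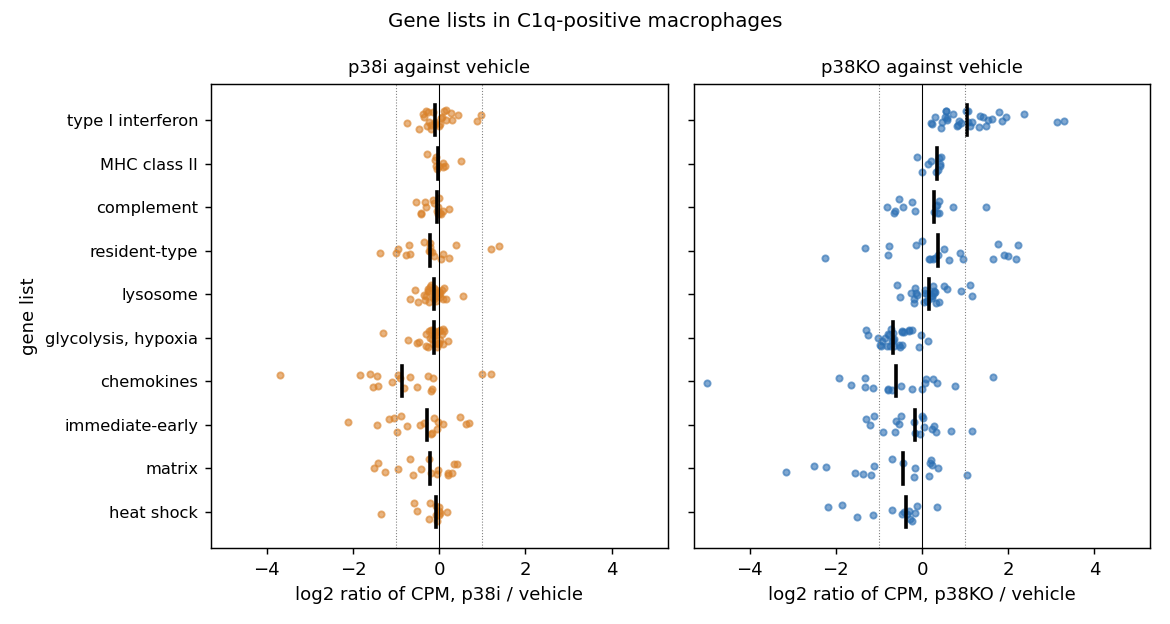
Log2 ratio of CPM (x axis) of each gene with at least 50 counts in 10 gene lists (y axis), p38i against vehicle on the left and p38KO against vehicle on the right. Points are genes, black bars list medians, dotted lines 2-fold. The type I interferon points of p38KO all lie to the right of 0 (median 1.04), and the chemokine median is lowest in p38i (-0.87).

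Some of the widest differences of the p38KO library were in transcripts of other lineages. Mcpt2 and Tpsab1, proteases of mast cells, were among the 8 genes with the largest ratio of p38KO to vehicle. Mcpt2 was not seen in the vehicle and p38i macrophages and was at 284 CPM in p38KO, at least 162-fold higher than a floor of 3 counts over the vehicle macrophages. The 10 mast cell markers, Mcpt2 and Tpsab1 together had 3150 UMIs in 111 of 355 cells, with 3 or more in 21 cells, and 10 cells held 95.5% of all these UMIs. Mcpt2 was at 207 CPM in Cxcr2-positive and 143 CPM in Cd3e-positive cells of the same library. S100a8 and S100a9 together had 20 or more UMIs in 0, 2 and 11 macrophages, and up to 577 UMIs in 1 cell. Of the p38KO cells with 10 or more Rsad2 UMIs, 4 of 8 were among these 11. Without all cells of these kinds, 93, 117 and 327 were left. The S100a8 ratio of p38KO to vehicle went from 1.73 to -0.70 and the S100a9 ratio from 1.12 to -0.78. Cells were left out for their S100a8 and S100a9 UMIs, among others, so this fall was set by the choice of cells. Without these cells Ccl8 stood at 1.63, Ms4a7, a gene of the rule, at 1.39 and the type I interferon list at a median of 1.01. Rsad2, whose p38KO UMIs lay in few cells, stood at 3.03. The part of other lineages in these values was not tested. Then 246 genes were at least 2-fold higher and 89 lower, and the share of p38KO cells was 8.47%. Ighm, an immunoglobulin heavy chain, was at 61.3 (vehicle), 46.3 (p38i) and 129.5 CPM (p38KO), with a UMI in 35 of 93, 37 of 119 and 195 of 355 cells and at most 13 UMIs in any.

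**Figure D4:**
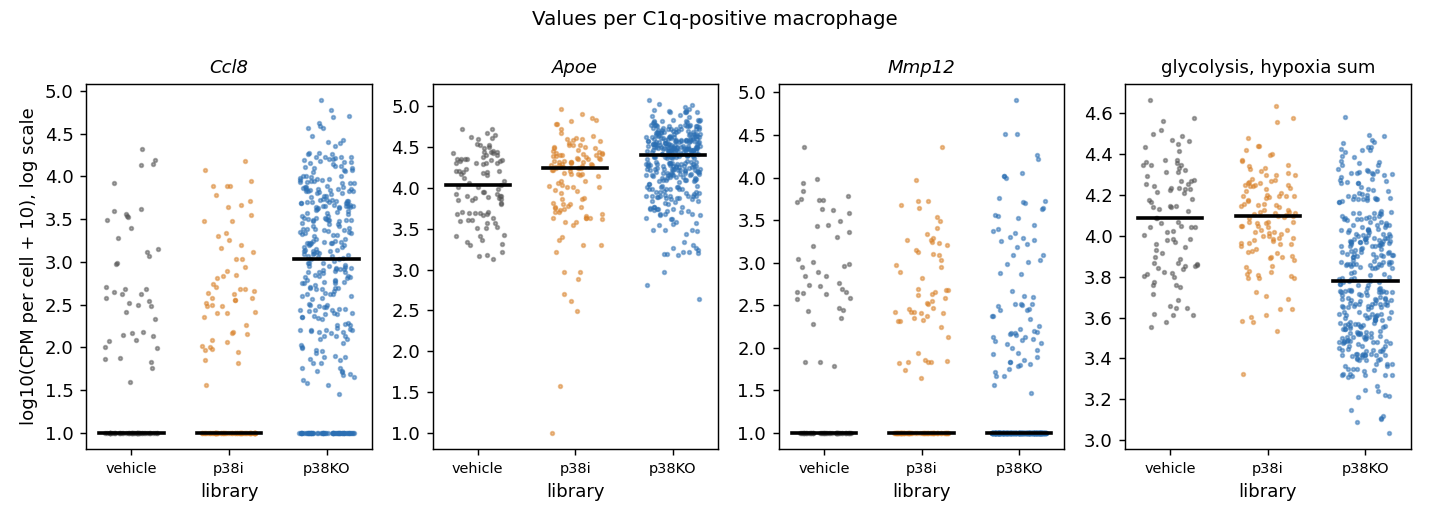
Level per macrophage, as log10 of CPM plus 10 (y axes, log scale), in the vehicle, p38i and p38KO libraries (x axes) for Ccl8, Apoe, Mmp12 and the summed glycolysis and hypoxia list. Points are cells (93, 119 and 355) and black bars medians. The Ccl8 median lies above the floor in p38KO alone, and the glycolysis sum of p38KO lies below the other two, at 5974 against 12168 and 12505 CPM.

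The macrophages were not uniform, and they were split by Ccl8 to describe how. After each cell was thinned to 1500 UMIs, 23, 34 and 226 cells held a Ccl8 UMI and 70, 85 and 129 did not, shares of 24.7% (16.4% to 34.8%), 28.6% (20.7% to 37.6%) and 63.7% (58.4% to 68.7%). Since the split rests on a measured gene, what follows describes these cells and is no test. Among 4130 genes with at least 50 counts in every library, Ms4a7 led the genes higher in cells with Ccl8, ranked by the lowest of their 3 ratios, with log2 ratios of 1.38, 2.27 and 1.67 in the 3 libraries. Vcam1 had 1.34, 1.71 and 1.49, the complement component C6 1.23, 1.23 and 1.47 and Apoe 1.11, 0.92 and 1.26. The phospholipid transfer protein Pltp had 0.89, 0.97 and 1.25, Selenop 0.84, 1.43 and 1.45 and Gas6, which bridges macrophages to apoptotic cells, 0.83, 1.93 and 1.13. MHC class II genes were higher in cells with Ccl8 in all 3 libraries for 8 of 10 genes, with medians of 0.51, 0.29 and 0.36, and lysosomal genes for 20 of 26, beside 750 of all 4130 genes.

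Cells without Ccl8 held more Ifitm1, with log2 ratios of -3.53, -2.28 and -3.67, and more Cxcl2, with -2.60, -1.35 and -1.65. The inducible nitric oxide synthase Nos2 had -1.56, -0.80 and -2.64 and the lectin Mgl2 -0.94, -0.94 and -0.74. Of 28 glycolysis and hypoxia genes, 18 were lower in cells with Ccl8 in all 3 libraries and none higher in all 3, beside 1101 of all 4130 genes lower in all 3. Their medians were -0.67, -0.29 and -0.90, beside medians of -0.03, -0.02 and -0.07 over all 4130 genes. Of 5 monocyte genes, 4 were lower with Ccl8 in all 3, Ccr2 with -1.08, -0.61 and -1.02. Some genes differed between libraries in this respect. Mmp12 had 1.18, 0.07 and -0.88 and the secreted phosphoprotein Spp1 -1.88, -1.47 and -0.04. In p38KO, cells with Ccl8 had a median of 10966 UMIs and cells without 14381, against 18977 and 17204 in vehicle.

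**Figure D5:**
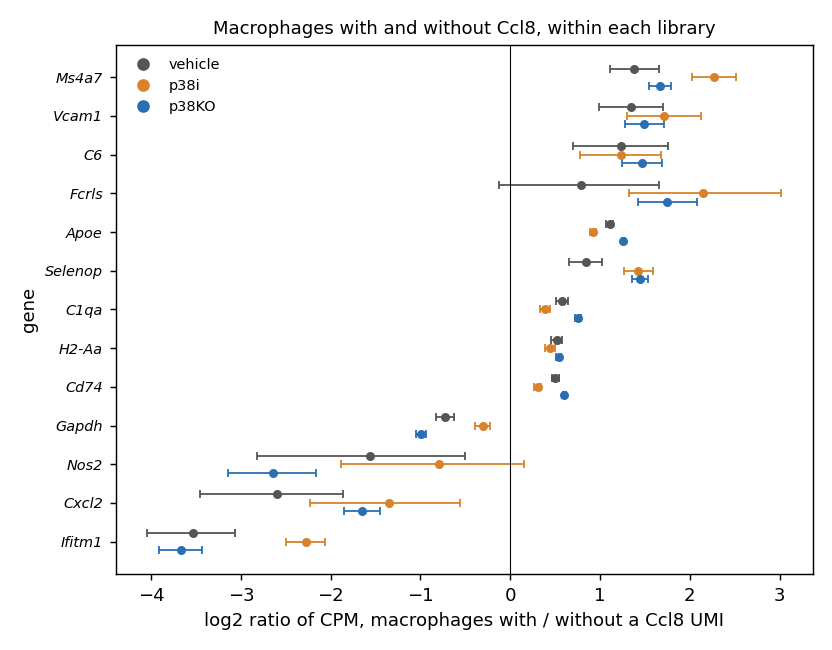
Log2 ratio of CPM between macrophages with and without a Ccl8 UMI at 1500 UMIs per cell (x axis) for 13 genes (y axis) in the vehicle (grey), p38i (orange) and p38KO (blue) libraries, with exact 95% conditional binomial intervals for counting error. Ms4a7, Vcam1 and Apoe lie right of 0 and Gapdh, Cxcl2 and Ifitm1 left of 0 in all 3 libraries.

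Values within each kind of cell are given side by side. Ccl8 was itself among the genes with the widest differences between libraries, so cells with Ccl8 need not be the same kind of cell in each, and nothing is read from these values about the sums over all macrophages. Among cells without Ccl8, Apoe was similar in p38KO and p38i, and its p38KO ratio to vehicle was 0.35 (0.32, 0.37), against 0.50 (0.47, 0.53) among cells with Ccl8. For Ms4a7 the ratios were 0.68 (0.47, 0.90) and 0.97 (0.76, 1.18), and for C1qa 0.08 (0.04, 0.13) and 0.26 (0.21, 0.32). The glycolysis and hypoxia list had a p38KO median of -0.34 without and -0.68 with Ccl8, and the type I interferon list 0.87 and 1.33. In p38i, Rgs1 was lower among cells without Ccl8, at -2.21 (-2.45, -1.97), and with it, at -1.75 (-2.07, -1.43). Dusp1 stood at -1.91 (-2.50, -1.35) without and -2.60 (-3.59, -1.72) with Ccl8, and Ccl2 at -1.40 (-1.63, -1.19) and -1.54 (-1.88, -1.20). Cxcl10 was lower in p38i without Ccl8, at -1.79 (-2.12, -1.47), but not with it, at 1.07 (0.19, 2.03), and Pf4 had -1.12 (-1.24, -1.01) and 0.58 (0.37, 0.78).

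C1q-low monocytes and cycling C1q-positive macrophages were compared in the same way, as cells the rule left out. Monocytes, which were chosen for low C1q, lay below the macrophages in Ccl8 and Cx3cr1, with macrophage-to-monocyte log2 ratios for Cx3cr1 of 2.74, 3.06 and 2.98. They lay above the macrophages in interferon-stimulated genes, with a summed list of 7445, 5857 and 9910.3 CPM. The p38i ratio of Rgs1 was -1.90 (-2.10, -1.70) in monocytes and -2.79 (-3.25, -2.37) in cycling macrophages, next to -2.03 in the macrophages not in cycle. That of Dusp1 was -1.60 (-1.72, -1.48) and -1.96 (-2.90, -1.12), next to -2.11. Ccl2 and Ccl7 had another sign in monocytes, with p38i ratios of 0.49 (0.36, 0.62) and 0.71 (0.45, 0.98) and p38KO ratios of 1.39 (1.26, 1.53) and 2.52 (2.27, 2.77). The p38i ratio of Cxcl10 was -0.25 (-0.36, -0.15) in monocytes, and those of Txnip were 0.98 (0.78, 1.18) and 1.34 (0.94, 1.74) in monocytes and cycling macrophages. In cycling macrophages, Ccl8 and Apoe had p38KO ratios of 1.69 (1.58, 1.81) and 0.73 (0.70, 0.76), next to 1.64 and 0.84, and in monocytes Apoe had 0.05 (0.01, 0.09). Whether these ratios differ between the cell kinds was not tested, since each rests on 1 library per group.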

How the data were processed

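The authors aligned the reads of the 3 libraries to the mouse genome (build mm10) with Cell Ranger, given as version 6.0.0 in the file headers, and deposited unnormalized UMI counts per gene and barcode. The submitters' processing notes also list R 4.2.1 and Seurat 5. The members and the gene lists were chosen with earlier results of these data known.

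Counts were read with Python 3.11.15, numpy 2.4.6, pandas 2.3.3 and scipy 1.17.1, and figures were drawn with matplotlib 3.10.9. Cells were kept and chosen by the limits given in the report. Counts were summed over the chosen cells of a library and scaled to CPM. No test across groups was made. CPM carry exact Poisson, shares exact Clopper-Pearson and log2 ratios exact conditional binomial 95% intervals, with 0.5 in place of a count of 0, all for counting error only. A gene was counted as higher or lower at 2-fold with at least 50 counts over both libraries. Cells were thinned to 1500 UMIs without replacement (random seed 1). Doublets were not called or removed. Cells with transcripts of other lineages were left out in alternatives. The code was tested on simulated data with known folds.

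Genes named are the markers of the rule, those the study names for monocytes and macrophages, the 8 highest and 8 lowest ratios of each comparison (at least 100 counts over both libraries and 100 CPM in one, leaving out Gm-numbered, Rik, ribosomal protein and mitochondrial genes), the leading gene of each list and up to 5 of its members past 2-fold, and the 15 genes highest against other cells. Genes of the Ccl8 split and some list members were named after their values were seen. Single values of a few genes that the rule takes in are not reported here. Promoter windows are from RefSeq (GRCm38.p6) and gene positions from GENCODE M21 (mm10).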

Additional observations from a re-analysis of the deposited data

Results flagged for a closer look

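C1q-positive barcodes also occurred outside the kept cells, in data that no comparison used. Of the barcodes that failed the limits on UMIs, genes or mitochondrial share, 7 of 768 in vehicle, 5 of 1550 in p38i and 19 of 1353 in p38KO met every other limit for a C1q-positive macrophage. These are 0.911% (0.367% to 1.87%), 0.323% (0.105% to 0.751%) and 1.40% (0.848% to 2.18%) of such barcodes, with exact Clopper-Pearson intervals. Of them, 6, 5 and 16 had more than 20% mitochondrial counts, with medians of 34.0%, 28.1% and 31.2%. With them counted over all deposited barcodes, the p38KO share remained the largest of the 3 libraries, at 7.18% against 2.18% in vehicle and 1.95% in p38i. Groups of 1 library allow no check for outlying samples.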

How the results depend on the processing

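No paired analysis was possible because each group has 1 library, and for the same reason no library could be left out. Counts of genes past 2-fold stayed within 1.5 times under every other limit on C1q, mitochondrial counts and other lineages, and under median-ratio scaling, which moved ratios by at most 0.05. They moved with the count minimum and the depth. For p38i against vehicle, p38KO against vehicle and p38KO against p38i in turn they were 157 higher and 172 lower, 556 higher and 170 lower, and 535 higher and 140 lower with at least 20 counts, 930 higher and 1570 lower, 1619 higher and 1145 lower, and 1570 higher and 1185 lower with at least 1, 193 higher and 277 lower, 844 higher and 359 lower, and 853 higher and 269 lower at 1.5-fold, 5 higher and 4 lower, 96 higher and 46 lower, and 72 higher and 37 lower with cells thinned to 1500 UMIs, which leaves fewer genes with 50 counts, and 57 higher and 51 lower, 362 higher and 140 lower, and 305 higher and 109 lower with the mean of CPM per cell. In p38i the share of higher genes among those past 2-fold was 36.2%, 55.6% with thinned cells, 52.8% with the mean per cell and 47.7% with at least 20 counts. In p38KO against vehicle and against p38i it was 75.3% and 80.8%, and 58.6% and 57.0% with at least 1 count. The share of cells in p38KO was 7.98% without macrophages holding any of the 11 markers of other lineages named in the report, 7.18% of all barcodes and 14.5% of cells without Cxcr2 and S100a9 transcripts. In p38i the last 2 were 1.95% and 1.49%, and in vehicle 2.18% and 2.39%. The ratio of Ptgs2 turned to 1.23 in p38i and 1.65 in p38KO with thinned cells, where few of its counts remain. Those of S100a8 and S100a9 turned in p38KO as given in the report (to -0.70 and -0.78, chosen after seeing the data). They turned when cells rich in these transcripts were left out, so the choice of cells set this. Of the values of single genes under these alternatives, 1462 stayed within the counting interval, 327 left it and 4 turned, and of the list medians 857 stayed within the quartiles of their members and 34 left them. With the mean of CPM per cell the immediate-early median in p38i was 0.05 and with thinned cells the matrix median in p38KO was 0.05, both across 0. Over all alternatives 15 of 27 list medians crossed 0 at least once for p38i against vehicle, 10 of 27 for p38KO against vehicle and 6 of 27 for p38KO against p38i, and the cause was not tested. Depth limits single genes most in vehicle, where 3 counts are 1.75 CPM.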

Other observations

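Other groups of macrophage genes were compared in the same way, beside 0.441% of genes past 2-fold higher and 0.775% lower in p38i, and 3.28% and 1.08% in p38KO. Transcription factors of macrophages had a median log2 ratio to vehicle of -0.10 in p38i and 0.08 in p38KO. In p38KO 1 of 27 was past 2-fold, close to the share of all genes. It was Klf4, a factor of monocyte maturation, at 36.8 (vehicle), 35.6 (p38i) and 16.9 CPM (p38KO). Fc receptors had 0 higher and 0 lower of 7 with a median of 0.01 in p38i, and 1 higher and 0 lower of 7 with a median of 0.36 in p38KO. Class I antigen presentation genes had 0 higher and 0 lower of 18 with a median of -0.10 in p38i, and 0 higher and 0 lower of 19 with a median of 0.07 in p38KO. Lysosomal genes had 0 higher and 0 lower of 29 with a median of -0.12 in p38i, and 2 higher and 0 lower of 29 with a median of 0.17 in p38KO. Colony-stimulating factor and chemokine receptors had 0 higher and 1 lower of 24 with a median of -0.09 in p38i, and 0 higher and 1 lower of 24 with a median of 0.23 in p38KO. Scavenger and apoptotic-cell receptors had 0 higher and 1 lower of 18 with a median of -0.09 in p38i, and 2 higher and 2 lower of 20 with a median of 0.38 in p38KO. Checkpoint ligands and costimulators had 0 higher and 0 lower of 16 with a median of -0.23 in p38i, and 0 higher and 2 lower of 18 with a median of -0.02 in p38KO. Genes induced by interferon gamma had 0 higher and 2 lower of 24 with a median of -0.11 in p38i, and 0 higher and 1 lower of 26 with a median of -0.07 in p38KO. Prostaglandin and leukotriene enzymes had 1 higher and 1 lower of 12 with a median of -0.10 in p38i, and 1 higher and 1 lower of 13 with a median of -0.01 in p38KO. Genes of arginine and nitric oxide metabolism had 0 higher and 0 lower of 11 with a median of -0.19 in p38i, and 0 higher and 0 lower of 11 with a median of -0.15 in p38KO. Genes of iron and heme handling had 0 higher and 1 lower of 9 with a median of -0.25 in p38i, and 2 higher and 0 lower of 11 with a median of -0.10 in p38KO. Genes of alternative activation had 1 higher and 0 lower of 12 with a median of 0.15 in p38i, and 2 higher and 0 lower of 16 with a median of -0.10 in p38KO. Where a list had more genes with enough counts in p38KO than in p38i, some reached the minimum only through p38KO. Their place in the p38KO counts is a description only. The ferritin chain Fth1 was at 15503 (vehicle), 13015 (p38i) and 12051 CPM (p38KO).

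A few genes stood out within these lists. Cd163, the receptor for haptoglobin and hemoglobin, and Mfge8, which bridges phagocytes to apoptotic cells, were at 4.09 (vehicle), 10.2 (p38i) and 16.3 CPM (p38KO) and at 4.09 (vehicle), 10.7 (p38i) and 40.7 CPM (p38KO), so both stood highest in p38KO. They reached the minimum of 50 counts only through p38KO, so their place in the counts of these lists is a description only. The iron exporter Slc40a1 was at 37.4 (vehicle), 14.1 (p38i) and 20.5 CPM (p38KO), with 87.5% of its vehicle UMIs in the richest 5% of cells. The B cell factor Tnfsf13b (BAFF) was at 15.8 (vehicle), 19.0 (p38i) and 40.7 CPM (p38KO), a log2 ratio of 1.37 (0.79, 2.01) in p38KO, and the activin subunit Inhba at 29.8 (vehicle), 25.4 (p38i) and 9.74 CPM (p38KO), with -1.61 (-2.21, -1.02). The tumor and epithelial marker Cdh1 was at 9.34 (vehicle), 30.7 (p38i) and 18.9 CPM (p38KO). Endothelial markers summed to 64.8, 61.0 and 37.6 CPM and B cell markers to 63.6, 50.2 and 146 CPM with Ighm as nearly all of it. Fn1, fibronectin, the leading gene of the classical monocyte list, was at 952 (vehicle), 1198 (p38i) and 1088 CPM (p38KO).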
